A study of Mus musculus with 13 samples.

Results

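The biliary mucins and trefoil factors were followed here as 10 genes in biliary epithelial cells (BEC) of the mouse liver: the mucins Muc1, Muc3, Muc4, Muc13 and Muc20, the trefoil peptides Tff1, Tff2 and Tff3, the secreted glycoprotein gene Dmbt1 and the transcription factor gene Sox17. They were chosen by name from the 55353 gene symbols of the files. BEC were taken as single-cell barcodes with at least 1500 UMIs (unique molecular identifiers, the counted cDNA molecules), at least 2 UMIs of Epcam, at least 2 of Krt7 and Krt19 together, and 0 of Ptprc. Of 95563 barcodes with at least 1500 UMIs in 13 libraries, 3848 met this rule. All libraries came from livers of male C57BL/6J mice aged 6 to 12 weeks. Mice received chow containing 0.1% DDC (3,5-diethoxycarbonyl-1,4-dihydrocollidine), a compound that obstructs and inflames the bile ducts, for 0 (D0, steady state), 3, 5, 9, 19 or 25 days. Each day was sampled with both isolation protocols, A and B, which sorted Epcam+ cells next to different leukocyte, endothelial and stromal fractions at equal ratios. A single further library, STOP, came from mice that returned to normal chow for 7 days after DDC feeding of 18 or 19 days (the labels give both), isolated by protocol B. The labels do not say which or how many mice went into a library, so the spread between libraries may hold animal and technical differences together.

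Mucins are large, heavily O-glycosylated proteins. Muc1, Muc3, Muc4, Muc13 and Muc20 are membrane-bound and form part of the glycocalyx at the luminal face of epithelia, whereas trefoil factors are small, protease-resistant peptides secreted with mucus that take part in epithelial repair. Dmbt1 is a scavenger receptor cysteine-rich glycoprotein of ducts and mucosae that binds bacteria. Sox17 is an HMG-box transcription factor of endoderm, of the extrahepatic and peribiliary biliary epithelium and of endothelium, while Sox9 marks the ductal epithelium of the liver at large.

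The 13 libraries held 29307190 to 108602421 UMIs in all. BEC were unevenly spread, with 1 to 1095 barcodes per library. D0 B, D3 A and D5 A held 1, 12 and 3 BEC barcodes and were left out, so 10 libraries with at least 20 BEC barcodes remained: D0 A (584), D3 B (85), D5 B (221), D9 A (741), D9 B (143), D19 A (55), D19 B (319), D25 A (1095), D25 B (307) and STOP (282). Steady state was therefore 1 library, the onset of disease (D3, D5) 2 libraries of protocol B, and progression (D9, D19, D25) 6 libraries of both protocols. The median depth of a BEC barcode lay between 9589 UMIs in STOP and 23493 in D9 B. Of the biliary markers, which include Epcam, Krt7 and Krt19 of the rule, the keratin genes Krt8 and Krt18 were found in at least 96.4% and 98.8% of the BEC barcodes of every library. The summed level of the biliary markers was 21846 to 43208 CPM (UMIs per 1000000 UMIs, summed over the barcodes), against 78.1 to 727.9 CPM for 6 endothelial, 8.6 to 811.2 for 6 stellate and fibroblast, 0.6 to 167.2 for 4 mesothelial, 1380 to 6253 for 7 hepatocyte and 211.8 to 845.0 for 7 leukocyte markers. STOP had the highest endothelial sum. D0 A, the only steady-state library kept, had the highest hepatocyte and the lowest leukocyte sum. Of 94448 distinct cell barcodes, 1104 occurred in more than 1 library, but no BEC barcode sequence did. No doublet caller was run.

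The members are spread over 6 chromosomes (GRCm38, GENCODE M21, gene bodies with exons and introns). Muc1 lies on chromosome 3 at 89229057 to 89233381 on the plus strand, and Muc3 on chromosome 5 at 137134922 to 137149322 on the minus strand. Muc4 (chromosome 16, 32735886 to 32782391, plus strand) and Muc20 (32777419 to 32797435, minus strand) point towards each other and share 4972 bp at their 3′ ends, where this chemistry reads, and whether counting used the strand is not given in the sources used here. Values of Muc20 and Muc4 are uncertain to that extent. Muc13 follows on the same chromosome 996.6 kb beyond Muc20, at 33794037 to 33819934 on the plus strand. The 3 trefoil genes form a cluster on chromosome 17, all on the minus strand, with Tff3 at 31125306 to 31129646, Tff2 at 31141049 to 31144282 and Tff1 at 31161395 to 31165277. Dmbt1 lies on chromosome 7 (131032053 to 131121630, plus strand) and Sox17 on chromosome 1 (4490931 to 4497354, minus strand). Muc3a, a gene of the same family 59.5 kb from Muc3, can share reads with it, so the division of counts between Muc3 and Muc3a is uncertain.

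Promoter sequences were at hand for 5 of the 10 members (RefSeq, GRCm38.p6). The 250 bases before the start of Muc1, Muc3 and Muc4 are shown because, of the member mucins, these were the ones called higher with Sox17 detection. Capitals mark TATAAA or its reverse complement TTTATA, found in 12.4% of 32851 promoters of this length.
Muc1, chr3:89228806-89229055, plus strand: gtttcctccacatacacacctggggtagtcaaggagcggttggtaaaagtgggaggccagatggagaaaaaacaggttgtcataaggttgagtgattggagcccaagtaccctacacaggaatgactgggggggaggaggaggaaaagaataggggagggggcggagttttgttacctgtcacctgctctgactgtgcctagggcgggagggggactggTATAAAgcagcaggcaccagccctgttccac
Muc3, chr5:137166047-137166296, minus strand: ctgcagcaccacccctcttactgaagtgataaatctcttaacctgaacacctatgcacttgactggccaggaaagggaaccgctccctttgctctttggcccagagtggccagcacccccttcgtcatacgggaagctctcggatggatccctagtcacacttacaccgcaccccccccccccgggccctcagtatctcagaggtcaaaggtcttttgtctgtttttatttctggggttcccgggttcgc
Muc4, chr16:32735636-32735885, plus strand: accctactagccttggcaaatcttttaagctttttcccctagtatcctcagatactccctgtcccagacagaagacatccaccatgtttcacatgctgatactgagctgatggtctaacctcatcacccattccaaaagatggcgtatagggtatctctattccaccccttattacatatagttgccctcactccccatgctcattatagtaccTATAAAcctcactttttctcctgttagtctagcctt
The Muc1 and Muc4 windows each held TATAAA, beginning 31 and 36 bases before the start, and the Muc3 window held none. RefSeq places the start of Muc3 upstream of the GENCODE gene. The SOX core ACAAT, or ATTGT on the other strand, occurred in 27.7% of all promoters and in none of the windows of the 5 members. This says only that these letters are not in these windows. Muc20 and Muc13 had neither motif.

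Among the membrane mucins, Muc1 was detected in most BEC of nearly every library. Its level was 301 CPM at D0, 397 and 228 CPM at D3 and D5, 155 to 764 CPM (median 330) over the 6 progression libraries and 241 CPM in STOP. The highest library was D9 A and the lowest D19 B, so progression libraries lay on both sides of the D0 value. Muc3 was measured at 24.7 CPM at D0, 127 CPM at D3 and 0 UMIs in the 221 BEC barcodes of D5, which allows up to 0.985 CPM. In progression it lay between 5.6 and 142 CPM (median 18.3) and in STOP at 7.0 CPM. D3 B, D9 A and D25 A were high, and all others were at or below 25 CPM. Muc4, which binds the receptor ErbB2 in other epithelia, was likewise high in D3 B, D9 A and D25 A. It was at 5.9 CPM at D0, 47.6 and 3.6 CPM at D3 and D5, 11.9 to 41.7 CPM (median 20.3) in progression and 14.4 CPM in STOP. All 6 progression libraries were above D0, while D5 was below it. Muc20 was low, at 2.1 CPM at D0, 0.6 and 3.9 CPM at D3 and D5, 2.7 to 7.5 CPM (median 4.8) in progression and 4.7 CPM in STOP. Muc13 reached at most 2.4 CPM (D9 A) and had no UMI in 5 of the 10 libraries. Leukocyte barcodes held 0 to 0.63 CPM and endothelial barcodes 0 to 1.6 CPM of it.

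**Figure D1:**
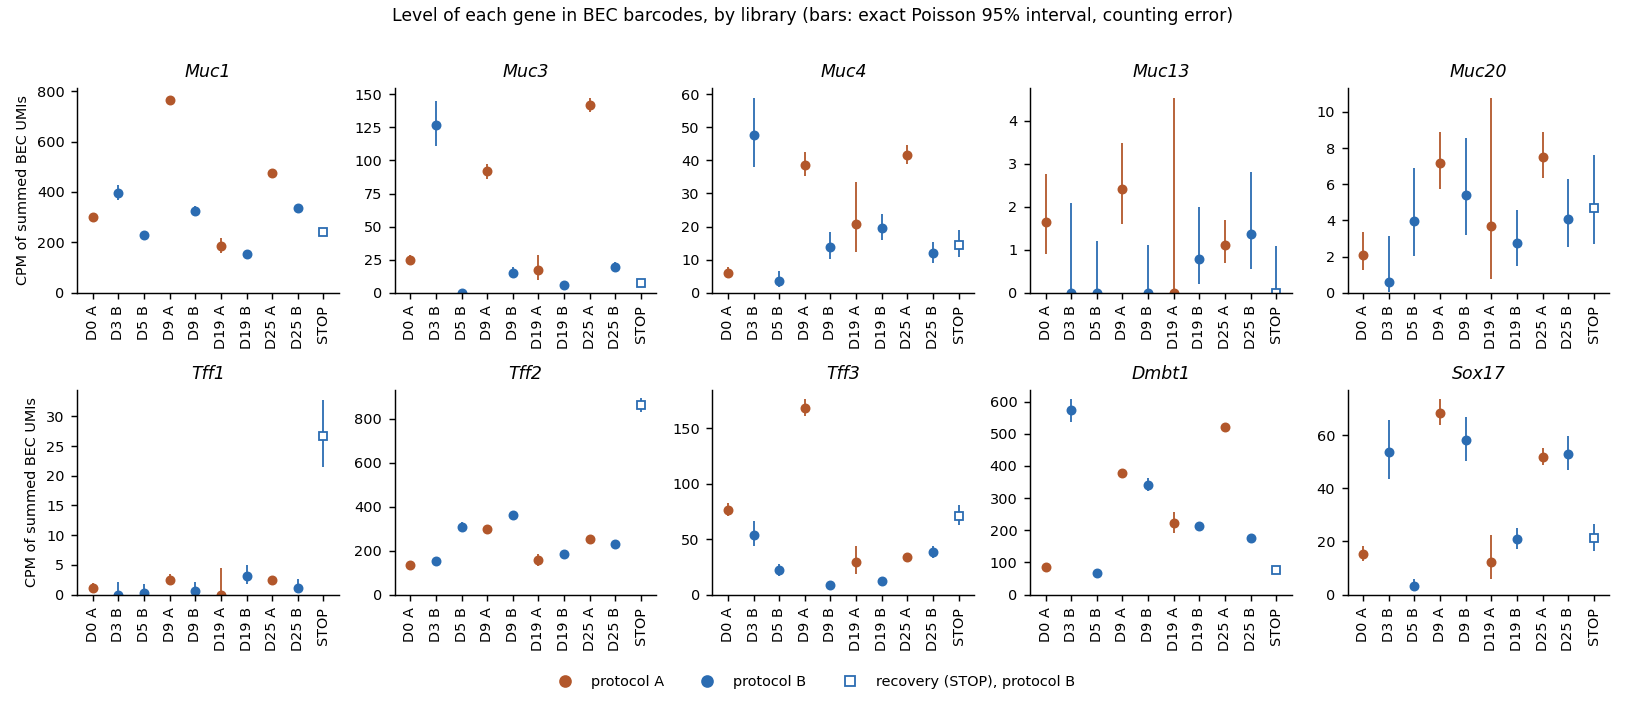
Level of each of the 10 genes (CPM of UMIs summed over BEC barcodes, linear axes from 0) in the 10 libraries with at least 20 BEC barcodes, coloured by isolation protocol, with exact Poisson 95% intervals that cover counting error only. Tff2 in the recovery library STOP (862 CPM) stands above all others. Muc3, Muc4 and Dmbt1 are high in D3 B and in D25 A and lower in D25 B, the other protocol of that day.

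Of the trefoil genes, Tff2 was the one found in BEC of all libraries at sizeable levels. It was at 136 CPM at D0, 153 and 309 CPM at D3 and D5, 156 to 360 CPM (median 241) in progression and 862 CPM in STOP. Every DDC library was above the D0 library, and STOP was above all of them. Tff3, the trefoil peptide of intestinal goblet cells, was at 76.4 CPM at D0, 53.9 and 21.7 CPM at onset, 8.7 to 168 CPM (median 31.4) in progression and 71.1 CPM in STOP. D9 A was the highest library and D9 B, of the same day, the lowest. In several libraries a single barcode carried much of the Tff3 signal, with 20.4% of its UMIs at D0 and 63.1% in D19 B. In D9 A and D25 A it was spread over 202 and 172 barcodes, with 4.4% and 6.1% in the highest. Tff1, best known from gastric surface cells, stayed at or below 3.1 CPM in all libraries but STOP, where 91 UMIs gave 26.7 CPM. Of these 91 UMIs, 58 (63.7%) came from 1 barcode and only 5 of 282 barcodes held any. Dmbt1 was at 86.7 CPM at D0, 572 and 66.3 CPM at D3 and D5, 176 to 522 CPM (median 281) in progression and 75.8 CPM in STOP. All 6 progression libraries were above D0, and D5 and STOP were below it. Sox17 was at 15.2 CPM at D0, 53.9 and 3.3 CPM at onset, 12.3 to 68.6 CPM (median 52.5) in progression and 21.1 CPM in STOP, so that D19 A overlapped with D0. Levels also depended on the BEC rule. Under the stricter rule, which also removed barcodes with Cdh5, Dcn, Lrat or Msln, Tff2 was at 185 rather than 309 CPM in D5 B and at 188 rather than 360 CPM in D9 B, but still lowest in D0 A (103 CPM) and highest in STOP (645 CPM). Dmbt1 was at 32.3 rather than 66.3 CPM in D5 B and at 111 rather than 212 CPM in D19 B, while Muc3 in D25 A was at 212 rather than 142 CPM. D19 A kept 14 barcodes and gave no value under that rule. Msln was found in 1.2 to 70.9% of the BEC barcodes of a library (median 28.6%). The mesothelial markers Lrrn4, Upk3b and Wt1 were each in at most 2.1, 2.2 and 2.1%. Whether barcodes with Msln were mixed with mesothelial cells or were BEC that express it was not tested, so the rule may also remove BEC.

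Shares of positive barcodes were set beside those in 28903 leukocyte barcodes as a measure of free RNA. These had at least 2 Ptprc UMIs and no Epcam, Krt7, Krt19 or Cdh5. Leaving out leukocytes with a UMI of Epcam, Krt7 or Krt19 may make this background too low. The leukocytes kept had a median depth of 2661 to 10188 UMIs per library, below that of BEC, so each barcode was also thinned to 1500 UMIs. All BEC barcodes exceeded that depth. Without thinning, 49.1 to 93.5% of BEC held a Muc1 UMI against 0.5 to 7.1% of leukocytes. After thinning, the share was 19.7 to 58.4% in BEC and at most 2.0% in leukocytes. Leukocytes of D0 B and D5 A, libraries with few BEC, held 52 and 39 Muc1 UMIs but 0 of Tff2, Tff3 and Dmbt1. Whether Muc1 in leukocytes was free RNA was not tested. Tff2 was found in 38.0 to 79.1% of BEC (10.9 to 46.8% thinned) and in at most 2.1% of leukocytes (1.2% thinned). Dmbt1 was found in 5.5 to 53.3% of BEC, or 3.6 to 32.1% thinned, against at most 0.6% of thinned leukocytes. The thinned shares were 0 to 11.2% for Muc3, 0.5 to 5.1% for Muc4, 0.7 to 9.2% for Tff3 and 0.5 to 8.2% for Sox17. The leukocyte maximum of each of these 4 was 0.5%, 0.1%, 0.3% and 0.8% in the same order. Muc3 in D5 B, D9 B and STOP, and Sox17 in D5 B, did not exceed it. Thinned Muc20 was found in 0 to 1.8% of BEC, and thinned Tff1 and Muc13 in at most 0.7% and 0.4%, so these shares rest on few barcodes. Endothelial barcodes also held Sox17, with 15.5 to 45.1% positive (8.2 to 15.5% thinned), and Muc13, with 0 to 1.3% positive (0 to 0.25% thinned).

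**Figure D2:**
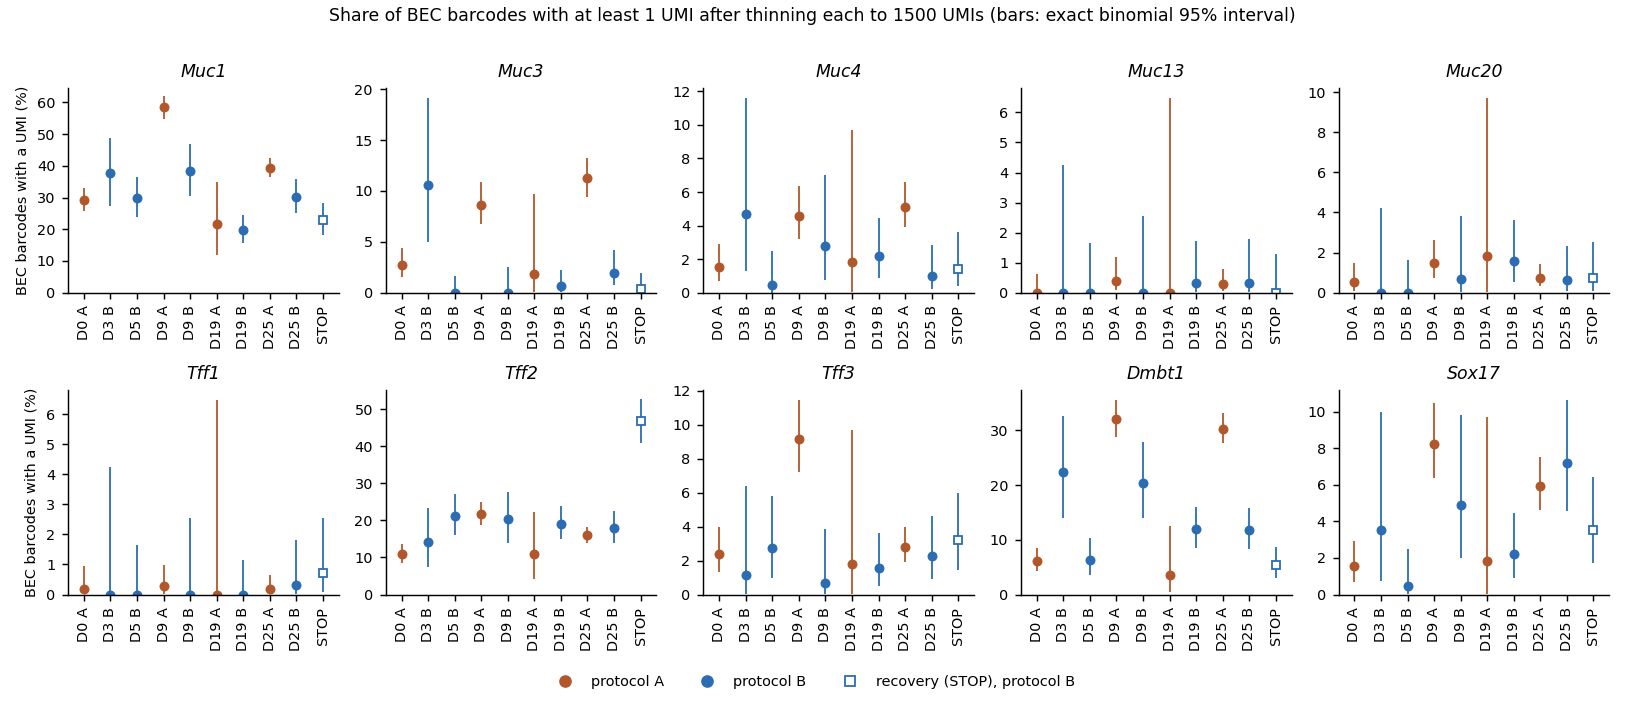
Percent of BEC barcodes with at least 1 UMI of each gene after every barcode was thinned to 1500 UMIs, by library, with exact binomial 95% intervals. The Tff2 share was 46.8% in STOP and 10.9 to 21.7% in the 9 other libraries.

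Whether DDC feeding changed these genes in BEC was tested by comparing the 8 DDC libraries with the D0 library, with protocol as a term (edgeR quasi-likelihood test on UMIs summed per library). No member passed an adjusted p of 0.05, where 3.20% of 14294 genes did (142 higher, 316 lower). DESeq2 called 557 higher and 478 lower, so the balance of directions depends on the tool. Estimates differed between members. The largest estimate was that of Muc4, at 2.80 on the log2 scale (SE 0.99, adjusted p = 0.130). Dmbt1 followed with 2.32 (SE 0.96, adjusted p = 0.177), Muc20 with 1.86 (SE 0.78, adjusted p = 0.183) and Sox17 with 1.86 (SE 1.14, adjusted p = 0.349). Muc3, whose libraries differed most, was estimated at 2.05 (SE 1.82). The median over the 10 members was 1.52 against 0.03 over all genes tested. Because D0 was a single library, these estimates rest on how well it stands for steady-state BEC, and the spread came from the DDC libraries. The number of genes called fell from 458 to 1 without D9 A and to 5 without D25 A, and rose to 996 without D3 B. Muc4 passed the threshold in 4 of 16 alternative settings, one of them the fit without D3 B (adjusted p = 0.0362; 0.00768 to 0.258 over all), Dmbt1 without a filter on low counts and Tff2 under the stricter BEC rule.

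Progression was compared with onset in the same libraries, and no gene of 14294 was called by edgeR (0%), with 973 at an unadjusted p under 0.05 and 32 called by DESeq2. No member was at an unadjusted p under 0.05. The estimates were -0.39 (SE 0.66) for Dmbt1, -0.70 (SE 0.69) for Muc4, -0.22 (SE 0.53) for Muc1, 0.10 (SE 0.41) for Tff2, 0.70 (SE 0.88) for Sox17, 0.61 (SE 0.67) for Muc20 and -0.90 (SE 0.82) for Tff3. They were further from 0 for Muc3 (-2.21, SE 1.22), Tff1 (2.85, SE 1.39) and Muc13 (5.32, SE 2.92), each of which had no UMI in at least 1 onset library. Muc3 passed the threshold where no filter on low counts was applied (-2.20, adjusted p = 4.1e-12). The 2 onset libraries lay far apart for these genes. Dmbt1 was 572 CPM in D3 B and 66.3 CPM in D5 B, and Sox17 was found in 21.2% and 3.2% of their BEC. Both onset libraries were of protocol B, and each day was 1 library, so day and library cannot be told apart at onset. Within progression the protocols differed for some genes at one and the same day. Muc3 was at 91.8 CPM in D9 A and 14.8 CPM in D9 B, and at 142 CPM in D25 A and 19.3 CPM in D25 B. Tff2, by contrast, was at 298 and 360 CPM on day 9 and at 251 and 230 CPM on day 25. These differences between protocols were not tested.

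In STOP, which has no second library, the members were set beside D19 B and D25 B, the protocol B libraries nearest in feeding time. Tff2 was at 862 CPM (exact Poisson 95% interval 831 to 894, counting error only), where D19 B had 185 CPM (174 to 198) and D25 B 230 CPM (217 to 244). Its signal was shared by many cells, with 223 of 282 barcodes positive and 8.7% of the UMIs in the highest barcode. Dmbt1 at 75.8 CPM (66.8 to 85.6) was below the 212 and 176 CPM of D19 B and D25 B, though above the 66.3 CPM of D5 B, and Muc3 at 7.0 CPM (4.5 to 10.5) lay between their 5.6 and 19.3 CPM. Muc1 at 241 CPM lay between their 155 and 337 CPM, as did Muc4 at 14.4 CPM between 19.7 and 11.9 CPM. Tff3 at 71.1 CPM (62.4 to 80.6) was above the 12.6 and 38.1 CPM of D19 B and D25 B, with 29.3% of its UMIs in the highest barcode, and Tff1 at 26.7 CPM was above their 3.1 and 1.2 CPM, mostly from the 1 barcode named above. By CPM, all 3 trefoil genes were thus higher in STOP than in these libraries. By share of BEC barcodes with a UMI, Tff3 (7.4%) and Tff1 (1.8%) in STOP lay within the range of the progression libraries. That range was 5.6 to 27.3% for Tff3 and 0 to 3.4% for Tff1. With 1 library these differences have no replicate check.

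Sox17-positive BEC were then compared with Sox17-negative BEC of the same library. The study named a BEC subset by Dmbt1, Muc4 and Sox17 in these libraries, so their association is a description of how the subset was defined and not independent evidence. A Sox17 UMI was present in 3.2 to 37.8% of BEC, and 7 libraries (D0 A, D9 A, D9 B, D19 B, D25 A, D25 B and STOP) had at least 20 barcodes on each side. Positive barcodes were deeper, with median UMIs of 17500 against 11421 in D9 A and 20697 against 13246 in D25 A. Of the members other than Sox17, 7 passed the filter on low counts and Muc13 and Tff1 did not. Of the 7, 5 rose in Sox17-positive BEC (edgeR with library as a block, adjusted p under 0.05), where 36.0% of 11295 genes were called, 19.3% higher and 16.6% lower.

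Muc3 differed most. It was at 23.8 to 350 CPM (median 83.1) in Sox17-positive and at 0.2 to 24.9 CPM (median 1.6) in Sox17-negative barcodes, higher in 7 of 7 libraries, and its log2 fold change was 4.47 (SE 0.39, adjusted p = 7.13e-05). Its UMIs were concentrated accordingly, since 79.5 to 100% of the Muc3 UMIs of a library (9 libraries with any) lay in Sox17-positive barcodes, which held 11.5 to 45.3% of all UMIs there. The 100% was D19 A, where the 14 UMIs came from 1 barcode. Muc4 was at 27.4 to 92.2 CPM (median 49.6) with and 2.3 to 18.1 CPM (median 10.1) without Sox17, and the ranges did not overlap (log2 fold change 2.78, SE 0.30, adjusted p = 0.000133). Dmbt1 was at 79.7 to 1020 CPM (median 604) with and 30.2 to 242 CPM (median 145) without Sox17 (log2 fold change 2.45, SE 0.40, adjusted p = 0.00113). It was higher in 7 of 7 libraries, but by only 5.2 CPM in STOP. Muc1 was at 265 to 1117 CPM (median 759) against 135 to 472 CPM (median 226), higher in 7 of 7 (log2 fold change 1.50, SE 0.19, adjusted p = 0.000318). Unlike the others it was common on both sides, with 73.9 to 98.9% of positive and 67.4 to 90.2% of negative barcodes holding a UMI.

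Tff3 rose as well, by 1.66 on the log2 scale (SE 0.39, adjusted p = 0.00745), from 5.5 to 94.7 CPM (median 20.9) without to 9.9 to 316 CPM (median 59.5) with Sox17. It was higher in 5 of 7 libraries, the exceptions being D19 B and STOP. When Sox17 status was read after thinning, which left D9 A, D25 A and D25 B, the Tff3 estimate was 0.20 and no longer called. Over the 10 libraries, thinning left a Sox17 UMI in 0.5 to 8.2% of BEC, against 3.2 to 37.8% before. Barcodes that lost theirs were counted as negative, which can by itself make estimates smaller. Muc3 (2.32), Muc4 (1.79), Dmbt1 (1.57) and Muc1 (1.36) were still called there, the first 3 with estimates lower by more than 1.5 times. Tff2, the neighbour of Tff3, was at 145 to 626 CPM (median 268) with and 119 to 939 CPM (median 272) without Sox17, higher in 3 of 7 libraries, and its log2 fold change was 0.08 (SE 0.20, adjusted p = 0.792). Muc20 was at 2.5 to 13.04 CPM (median 6.9) against 1.1 to 7.4 CPM (median 3.5), and its log2 fold change was 0.997 (SE 0.37, adjusted p = 0.0570). Its call depended on the setting, passing without STOP (adjusted p = 0.0481), without D9 A (0.0427), without a filter on low counts (0.0183) and under DESeq2 (0.0396).

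**Figure D3:**
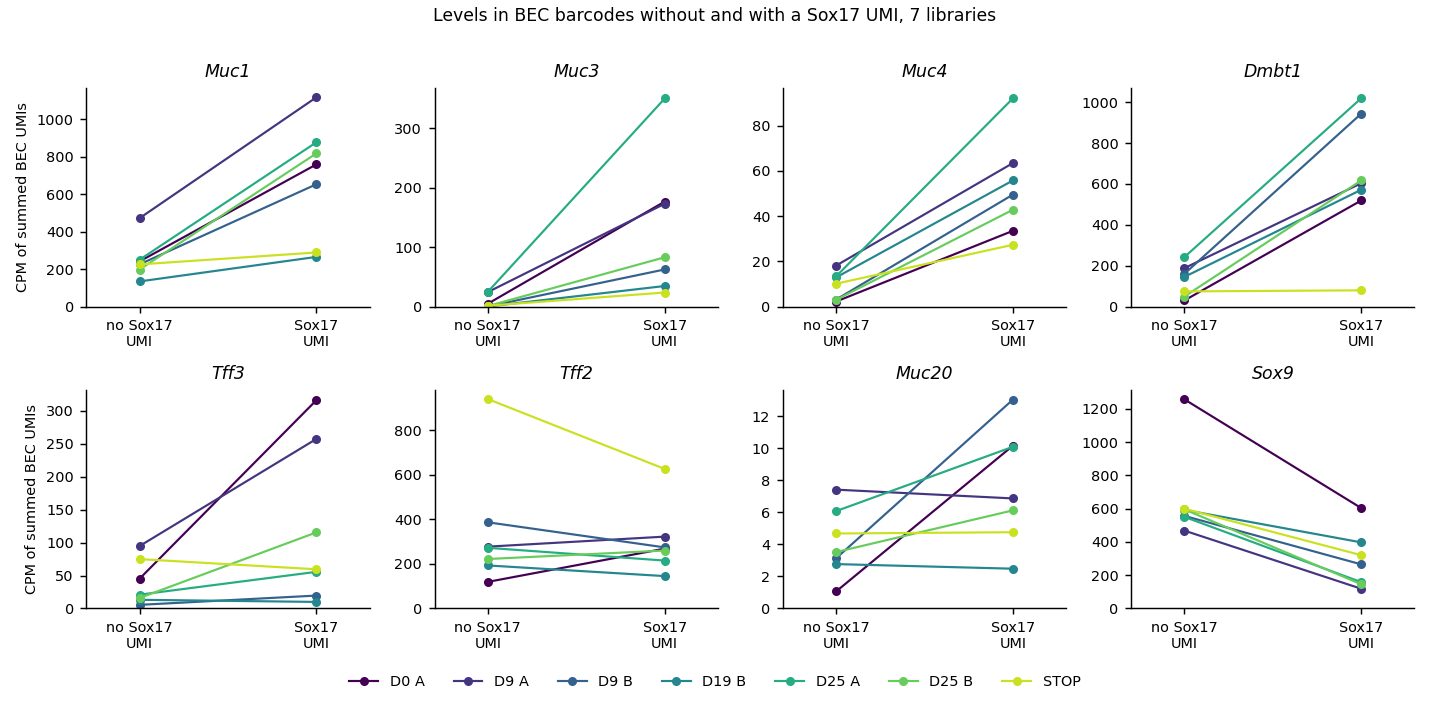
CPM in BEC barcodes without (left) and with (right) a Sox17 UMI for 7 genes of the group and Sox9, one line per library. Lines of Muc1, Muc3, Muc4 and Dmbt1 rise in all 7 libraries, those of Tff2 run in both directions, and those of Sox9 fall in all 7.

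Endothelial cells also express Sox17, so the endothelial gene Cdh5 (VE-cadherin) was read in the same barcodes. In Sox17-positive BEC the 6 endothelial markers summed to 123 to 1606 CPM (median 479), against 65.1 to 440 CPM (median 145) in Sox17-negative BEC. The stellate and fibroblast sum had medians of 62.8 and 168 CPM in the same order. It was higher with Sox17 only in STOP (1876 against 399 CPM), D25 B (1471 against 621 CPM) and D9 A (62.8 against 37.1 CPM). The biliary marker sum was lower with Sox17, with medians of 17456 against 34156 CPM. Spp1 had the highest level in this sum, with medians of 6642 CPM with and 20747 CPM without Sox17. By median, Krt19 (2364 against 1407 CPM) and Cldn7 (1016 against 900 CPM) were higher with Sox17, and the other detected biliary markers were lower. Krt8 and Krt18 were found in 100% of Sox17-positive BEC. A Cdh5 UMI was found in 76.1% of the Sox17-positive BEC of STOP, 61.8% in D19 B, 56.0% in D9 B, 43.9% in D0 A, 34.5% in D25 A, 30.4% in D9 A and 9.8% in D25 B. In Sox17-negative BEC this share was 3.9 to 28.0%. The stricter rule, without barcodes that hold Cdh5, Dcn, Lrat or Msln, left 4 libraries (D0 A, D9 A and both of D25) and gave the same 5 calls, with log2 fold changes of 3.63 for Muc3, 2.62 for Muc4, 2.82 for Dmbt1, 2.36 for Tff3 and 1.92 for Muc1. In a comparison chosen after the Cdh5 values were seen, barcodes with any Cdh5 UMI were removed. The 11 Sox17-positive barcodes that remained in STOP then held 252 CPM of Dmbt1, 857 CPM of Muc1, 113 CPM of Muc3 and 107 CPM of Muc4. The 193 Sox17-negative ones held 62.3, 225, 2.1 and 6.4 CPM in the same order. In D19 B, Dmbt1 went from 572 CPM in 34 to 1291 CPM in 13 Sox17-positive barcodes. In D9 A it went from 604 to 680 CPM and in D0 A from 519 to 515 CPM, although Cdh5 was more common on the Sox17-positive side of D0 A. The part of mixed barcodes in the test over all BEC was not tested further.

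Detection of Sox9 divided the members the other way. The study named the other BEC clusters of these libraries by Sox9. Lower Dmbt1, Muc4 and Sox17 with Sox9 is thus also a description of how its subsets were defined. Sox9 was found in 69.9 to 95.4% of BEC, and 7 libraries (D0 A, D5 B, D9 A, D19 B, D25 A, D25 B and STOP) had at least 20 barcodes on each side. Of 8 members that passed the filter, 6 were lower in Sox9-positive BEC (edgeR, adjusted p under 0.05) and none higher, where 23.3% of 11241 genes were called, 11.3% lower and 12.0% higher. The number called fell to 1473 without D25 A and 1663 without D9 A. Muc3 was at 0 to 63.4 CPM (median 9.9) with and 0 to 431 CPM (median 98.1) without Sox9, and its log2 fold change was -3.73 (SE 0.38, adjusted p = 3.88e-05). Sox17 fell by 2.47 on the log2 scale (SE 0.28, adjusted p = 5.49e-05). Dmbt1, at 46.9 to 351 CPM (median 113) with and 118 to 1150 CPM (median 678) without Sox9, was lower in 7 of 7 libraries (log2 fold change -2.36, SE 0.26, adjusted p = 4.41e-05). Muc4 fell by 2.34 (SE 0.27), Tff3 by 2.04 (SE 0.49) and Muc1 by 1.52 (SE 0.16) on this scale. The sizes depended on the setting. Muc1 was at -0.83 with Sox9 status read after thinning, and Muc3 at -2.41 and Dmbt1 at -1.54 under the stricter BEC rule, all still called. Tff2 (-0.14, SE 0.26) and Muc20 (0.98, SE 0.57) were not called. This comparison shares most of its BEC with the one on Sox17 (6 of 7 libraries), so it is no separate evidence. Within Sox17-negative BEC alone (4 libraries: D5 B, D9 A and both of D25), Muc3, Muc4, Dmbt1 and Muc1 remained lower with Sox9, at -4.72, -3.43, -3.09 and -1.25, while Tff3 (-0.82, adjusted p = 0.277) did not pass. Tff3 also missed the threshold under the stricter rule, at -0.04.

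Reading both factors together gave 4 classes. D9 A, D25 A and D25 B had at least 20 barcodes in each. Muc3 was highest with Sox17 alone and lowest with Sox9 alone in all 3 libraries. In D25 A it was at 522 CPM in 156 barcodes with Sox17 only (exact Poisson 95% interval 496 to 548), 220 CPM in 157 with both (205 to 235), 187 CPM in 103 with neither (163 to 215) and 8.7 CPM in 679 with Sox9 only (7.0 to 10.6). The classes with both and with neither overlapped in these intervals, while the others did not. Muc1 and Dmbt1 were likewise highest with Sox17 only and lowest with Sox9 only in the 3 libraries. Dmbt1 was at 1202 against 166 CPM in D25 A, 802 against 31.6 CPM in D25 B and 658 against 125 CPM in D9 A. BEC with neither factor held 1010, 415 and 639 CPM of Dmbt1 in these libraries, far above those with Sox9 only. The share of such barcodes without a Sox17 UMI for want of depth was not tested.

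Muc20 behaved otherwise. In D25 A it was at 16.8 CPM (12.9 to 21.4) with both factors, 6.0 CPM (4.6 to 7.6) with Sox9 only and 1.4 CPM (0.4 to 3.5) with Sox17 only, from 65, 66 and 4 UMIs. D9 A gave 11.6, 8.3 and 1.6 CPM in the same order, and D25 B gave 9.3 and 3.4 CPM and 0 UMIs in 21 barcodes. When barcodes with Sox17 only were tested against those with Sox9 only, Muc20 had a log2 fold change of -2.03 (edgeR, adjusted p = 0.0146), whereas Muc3 (6.07), Muc4 (4.03), Dmbt1 (3.48), Muc1 (2.38) and Tff3 (1.99) were higher. Tff2 was also highest with both factors in the 3 libraries, at 414 CPM in D9 A, 302 CPM in D25 A and 287 CPM in D25 B. With Sox17 only it was at 220, 101 and 207 CPM, and its difference between the exclusive classes was not called (-0.44, adjusted p = 0.173).

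**Figure D4:**
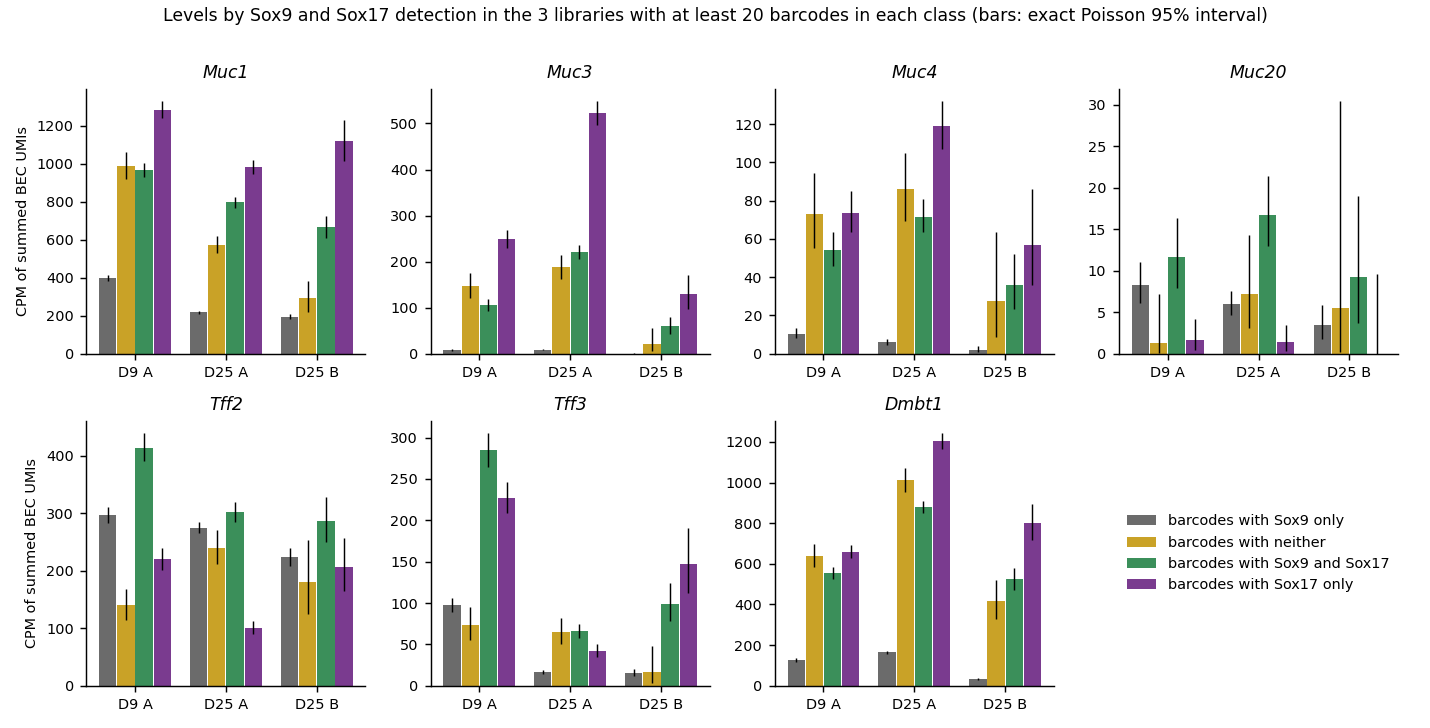
CPM of 7 genes in BEC barcodes with a UMI of Sox9 only, of neither factor, of both or of Sox17 only, in the 3 libraries with at least 20 barcodes in each class, with exact Poisson 95% intervals (counting error). Muc3 in D25 A falls from 522 CPM with Sox17 only to 8.7 CPM with Sox9 only, whereas Muc20 and Tff2 are highest with both.

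Members were also detected together in single barcodes. The following shares are descriptions over libraries with enough positive barcodes, and deeper barcodes show more of every gene. Among barcodes with Muc4, a median of 97.4% over 5 libraries (96.0 to 100%) also held Dmbt1, against 10.5% (8.1 to 33.7%) of those without. Nearly all Muc4-positive BEC in these libraries were thus Dmbt1-positive. Of barcodes with Dmbt1, 51.6% (15.4 to 77.3%, 9 libraries) held a Muc4 UMI. Muc4 was at a lower level than Dmbt1 in every library, and the shares rest on different sets of libraries. They therefore cannot tell whether BEC with Dmbt1 but no Muc4 UMI lacked Muc4 or had too few UMIs to show it. Muc3 was found in 56.0% (12.5 to 70.0%) of barcodes with Muc4 and in 4.1% (0.3 to 12.3%) of those without. After thinning to 1500 UMIs, in the 2 libraries with enough barcodes, Dmbt1 was found in 73.5% and 76.8% of barcodes with Muc4 and in 27.8% and 30.1% of those without. Tff2 and Tff3 were also found together. In barcodes with Tff3, 76.7% (65.7 to 85.7%, 5 libraries) held Tff2, against 46.9% (34.3 to 78.5%) without Tff3. After thinning, these shares were 58.8% and 17.98% in D9 A but 19.4% and 15.9% in D25 A. For Muc4 and Tff2 no such tie was seen, with 50.0% of barcodes with and 55.6% of those without Muc4 holding Tff2.

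Among 9500 genes detected in at least 10% of BEC, those whose log-scaled counts correlated most with Sox17 across the barcodes of a library (Pearson's r, averaged over 10 libraries) were S100g (0.56), Adgrg7 (0.52), Sord (0.51), Lgals4 (0.51) and Ckmt1 (0.51). S100g encodes an intestinal calcium-binding protein and Lgals4 the epithelial lectin galectin-4. Dmbt1 reached 0.46, Muc3 0.42, Muc4 0.40 and Muc1 0.34, while Tff3 reached 0.21, Muc20 0.05 and Tff2 -0.03. For Muc1 the list was Lgals4 (0.55), Ly6d (0.54), Ugt2b34 (0.54), Ckmt1 (0.54) and Dmbt1 (0.53). The values varied widely between libraries, for S100g and Sox17 from 0.20 to 0.83, and the barcodes of a library share its depth and free RNA. Among called genes whose mean log2 CPM reached 5, Reg1 (5.27, SE 0.49) and S100g (4.74, SE 0.46) had the largest log2 fold changes with Sox17 detection, and Ankrd1 (-2.55) and Slpi (-2.44) the lowest. With Sox17 status read after thinning, Reg1 was at 3.34 and no longer called (adjusted p = 0.0515), and S100g was at 2.01.

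Genes that act with mucins were read from lists. Of 22 enzymes of mucin O-glycosylation, 14 were tested in the Sox17 comparison, and 10 were higher, 0 lower and 4 not called, where 19.3% of all genes were higher and 16.6% lower, with a median log2 fold change of 0.66 against -0.01 over all genes. Gcnt3, which branches core O-glycans of mucins, was at 2.92 (SE 0.46, adjusted p = 0.000972). B3gnt3 (1.69, SE 0.20) and the fucosyltransferase gene Fut2 (1.40, SE 0.16) followed, and Galnt7, which adds N-acetylgalactosamine, was at 1.08 (SE 0.18). With Sox17 status read after thinning, the call of Galnt7 was lost (0.75, adjusted p = 0.0683), and Gcnt3 was at 1.76, B3gnt3 at 1.14 and Fut2 at 0.88. In the Sox9 comparison 7 of 15 were lower and none higher, where 11.3% of all genes were lower and 12.0% higher. In the test of DDC feeding, where 3.20% of all genes were called, only Galnt3 of 16 passed (1.37, SE 0.28, adjusted p = 0.0317), a call lost without the protocol term (adjusted p = 0.0545) and without D9 A, D9 B or D25 A (0.0518 to 0.106), and it was not called in the Sox17 comparison. Of 15 genes of a mucus-secreting programme, 8 were tested with Sox17 and 4 were higher, 2 lower, beside the same 19.3% and 16.6% of all genes. Pigr, the transporter of polymeric immunoglobulins (2.60, SE 0.41), and Fcgbp, a mucus protein (2.41, SE 0.31), were higher, while the forkhead genes Foxa1 (-1.78, SE 0.31) and Foxa3 (-1.09, SE 0.33) were lower. The call of Foxa3 was lost without D0 A, D9 A, D25 A or D25 B (adjusted p = 0.0505 to 0.0690). With Sox9 detection 5 of 11 were lower and 2, Foxa1 (2.53) and Foxa3 (2.46), higher. With Sox9 status read after thinning (10 libraries) both were at 0.60 and still called, and in Sox17-negative BEC Foxa1 was at 1.36. Of 11 other mucins only 2 could be tested in either comparison. Muc3a followed Muc3, with 3.79 (SE 0.40, adjusted p = 0.000129) for Sox17 and -3.41 (SE 0.37) for Sox9, and Muc6 was not called.

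Of 14 duct transcription factors, all tested with Sox17, 3 were higher, 5 lower and 6 not called, with a median of 0.02. The share higher is close to the 19.3% of all genes, and 16.6% of all genes were lower. Higher were Klf5 (1.10, SE 0.13) and the relatives of Sox17 in the SoxF family, Sox18 (1.41, SE 0.35) and Sox7 (1.18, SE 0.29). Both SoxF genes are known from endothelium. The endothelial marker sum, given above, was also higher in Sox17-positive BEC, and a link between the 2 was not tested. When Sox17 status was read after thinning, the Sox7 estimate was -0.0044 and the Sox18 estimate 0.49, neither called. Neither was called with at least 2 Sox17 UMIs required (0.66 and 0.33) or with Sox9 status included (0.71 and 0.42). Sox4 (-1.61, SE 0.20) and Sox9 (-1.23, SE 0.16) were lower in 7 of 7 libraries for Sox9, from 468 to 1256 CPM without to 118 to 603 CPM with Sox17. Hhex (-0.30) and Grhl2 (-0.52) were lower by small amounts. In the test of DDC feeding, Sox9 (-1.48, SE 0.29, adjusted p = 0.0309) and Grhl2 (-1.05, SE 0.25, adjusted p = 0.0474) were the only 2 of the 14 called, both lower, where 3.20% of all genes were called. Both calls were lost without D9 A (adjusted p = 0.0901 and 0.107), without D25 A (0.0921 and 0.135) and in Sox17-negative BEC (0.0962 and 0.0880), where the estimates were -1.19 to -1.59 for Sox9 and -0.95 to -1.10 for Grhl2. That of Sox9 was also lost without the protocol term (0.0767), and that of Grhl2 under the stricter rule (0.104) and without D9 B, D19 A or D19 B (0.0530 to 0.0709).

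**Figure D5:**
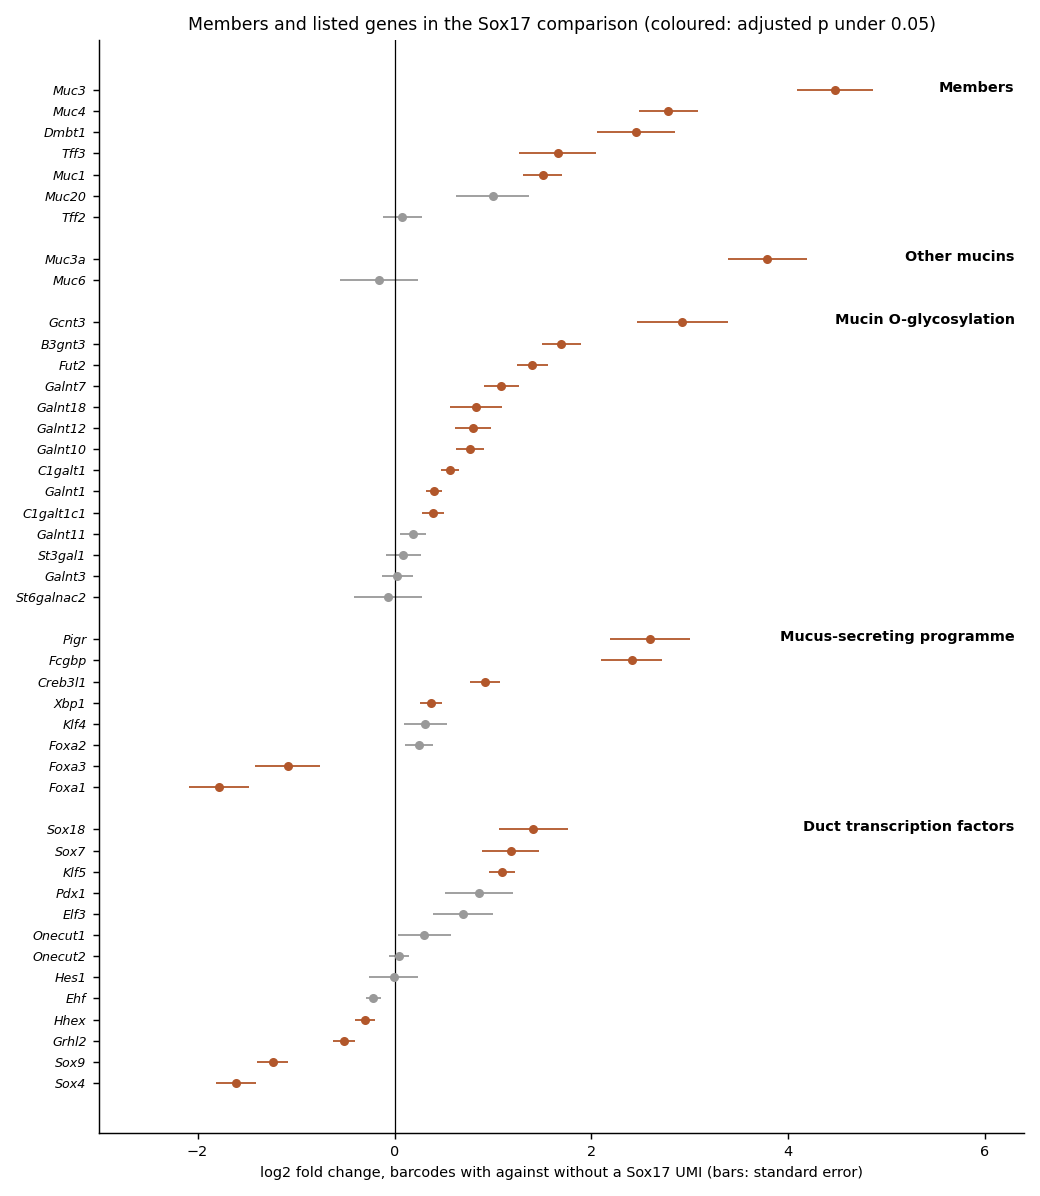
Log2 fold change with its standard error between BEC with and without a Sox17 UMI (edgeR, 7 libraries) for tested members and listed genes, coloured where the adjusted p was under 0.05. Mucin O-glycosylation genes lie at or above 0 but for St6galnac2, up to 2.92 for Gcnt3, whereas duct transcription factors lie on both sides.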

How the data were processed

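Droplet-based 3′ single-cell libraries (Chromium v3.1, single index in protocol A, dual index in protocol B) of sorted liver cells were aligned by the authors with kallisto to GRCm38, as the submitters' processing notes list. Versions and the use of strand are not given in the sources used here. Unnormalized UMI counts of each gene in each barcode are what the authors deposited, with no filter on cells. The library titled D19 B carries day 18 in a second label.

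UMIs of BEC barcodes were summed per library (at least 20 barcodes) and divided by all their UMIs to give CPM. Sums were tested with edgeR 4.0.16 (TMM, filterByExpr, quasi-likelihood F-test, Benjamini-Hochberg over all genes tested, adjusted p under 0.05), with DESeq2 1.42.0 as an alternative, in R 4.3.3. Diet and stage fits used 9 libraries with protocol as a term. Sox17 and Sox9 fits used libraries with at least 20 barcodes on each side and the library as a block. The scripts were tested on simulated data. Intervals are exact (Poisson for CPM, Clopper-Pearson for shares, 95%) and floors are 3 counts; both cover counting error only. Thinning drew 1500 UMIs per barcode without replacement. Where Sox17 or Sox9 status was read after thinning, barcodes that lost their UMI of that gene were counted as negative. The motifs were searched on both strands.

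The members and lists were chosen with earlier results of these data known. Genes named from lists were those called, at most 4 per list and comparison by size of change; others named were the 2 largest changes per direction whose mean log2 CPM reached 5, and the 5 genes most correlated with Sox17 and Muc1. Further duct transcription factors were named after their values were seen, and some listed genes are not reported here. P-values of the diet and stage fits measure the spread between libraries. Those of the Sox17 and Sox9 fits measure how the difference within a library varies from library to library. Either spread may be technical. Alternatives were another tool, no filter, other BEC rules and depths, protocol subsets, left-out libraries and other definitions of Sox17 or Sox9 status.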

Additional observations from a re-analysis of the deposited data

Results flagged for a closer look

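Among the 6 progression libraries, Tff3 in D9 A, at 168.3 CPM stood far above the next library (38.1 CPM in D25 B). D9 B, of the same day and the other protocol, held 8.7 CPM. The D9 A signal came from 202 of 741 BEC barcodes, with 4.4% of the UMIs in the highest one.

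In the Sox17 comparison, the difference of Muc4 between positive and negative barcodes was 78.8 CPM in D25 A, apart from 39.8 to 46.4 CPM in the 4 other progression libraries. Muc13 showed a difference of 0 CPM in D9 B, where neither side held a UMI, against 0.46 to 0.56 CPM in the others. Of 29 such groups examined, 3 stood apart, and chance alone flags about 1 in 20.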

How the results depend on the processing

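The count of genes called between DDC and D0 (458) was 1035 under DESeq2, 1270 without a filter on low counts, 697 with protocol A only and 146 in Sox17-negative BEC. With a library left out it was 1 (without D9 A) to 996 (without D3 B), and it could not be fitted without D0 A. For progression against onset (0 genes) it was 32 under DESeq2, 305 without a filter, and 0 to 28 with a library left out, the 28 without D5 B. With status read after thinning, the Sox17 count went from 4062 to 2235 (3 libraries) and the Sox9 count from 2622 to 1481 (10 libraries). The Sox9 count was 699 in Sox17-negative BEC and 1473 (without D25 A) to 2848 with a library left out.

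Some estimates of members that were not called changed sign. Between DDC and D0, Tff3 went to -0.51 and Muc13 to -0.60 without the protocol term, and Tff3 ranged from -1.09 to 0.65 with a library left out. Between progression and onset, no protocol term gave 0.29 for Muc1, 0.089 for Muc4, 0.48 for Tff3 and 0.0047 for Dmbt1. With a library left out, Muc1 ranged from -0.56 to 0.16, Muc3 from -3.28 to 9.51, Muc4 from -1.69 to 1.95, Muc20 from -0.072 to 2.76, Tff2 from -0.35 to 0.73, Dmbt1 from -1.26 to 1.77 and Sox17 from -0.31 to 3.64. The 9.51 of Muc3 is against D5 B, which had no UMI, and is no bound. Tff2 was at -0.14 under the stricter rule and Dmbt1 at 0.054 in Sox17-negative BEC. Muc3 passed without a filter (-2.20, adjusted p = 4.1e-12). For Sox17 detection, Tff2 was at -0.57 after thinning, -0.44 with Sox9 status included and -0.13 to 0.15 with a library left out, Muc20 at -2.03 with Sox9 status included and Sox7 at -0.0044 after thinning. For Sox9 detection, Tff2 was at 0.22 and 0.31 under the looser and stricter rules, 0.30 in Sox17-negative BEC and -0.31 to 0.17 with a library left out. The cause of these changes was not tested. The calls of Muc1, Muc3, Muc4 and Dmbt1 with Sox17 and with Sox9 held in the 15 and 14 alternatives run. No paired analysis by replicate number was possible because the labels number no replicates. Depth limits Muc13, Tff1 and Muc20 most, with 74, 198 and 329 UMIs in the BEC of the 10 libraries.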
